A study of Homo sapiens with 8 samples.

Results

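The comparison described here is that of HEK293T cells in methionine-deficient medium (Met-) with the same cells in complete medium (Suff), profiled without cycloheximide (CHX). It used 2 of the 8 libraries of the study, 1 for each medium, and both libraries were chosen by their labelled condition. Of 11655 mRNAs listed in either library, 7897 had a mean RPKM of at least 10 over the pair and were compared. RPKM is the number of ribosome footprints scaled to coding length and to the library total, so it ranks mRNAs by ribosomes per length. The log2 ratio is that of RPKM + 1 in Met- to RPKM + 1 in Suff.

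The study profiled ribosomes in HEK293T cells, an established human embryonic kidney line carrying the SV40 large T antigen, and asked how lack of a single amino acid alters translation. Both media were built from DMEM without sulfur amino acids, histidine, leucine and arginine, with dialyzed serum. Suff cells received all of the missing amino acids, whereas Met- cells were kept over night without added methionine but with cysteine. Other libraries came from leucine-deficient (Leu-) and arginine-deficient (Arg-) cells, and a second series was treated with CHX, which arrests elongating ribosomes. No group was replicated, so no p-value is given, and mRNAs are said to rise or fall only where the ratio passed 2-fold. Intervals (95%, in log2 units, on the ratio of read counts without a pseudocount) cover counting error alone, and PCR copies are not independent molecules. The labels do not say whether cells of each medium came from separate cultures.

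Methionine starts every protein and is also converted to S-adenosylmethionine (SAM), the methyl donor for DNA, RNA, histones and lipids. SAM further supplies polyamine synthesis, and its homocysteine product is either remethylated to methionine or passed on to cysteine. Amino acid shortage is sensed by the kinase GCN2, which phosphorylates eIF2. The block on initiation raises translation of ATF4, a transcription factor for amino acid transporters, synthetases and biosynthetic enzymes, whereas the kinase mTORC1 favors translation of mRNAs with a terminal oligopyrimidine (TOP) start.

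The Met- library held 1302523 footprints on coding sequences and the Suff library 3139745, read from the steps of the deposited values. Among 15 markers of blood, liver, breast, epithelial, connective tissue and melanocytic cells, 1 was listed, at no more than 4.19 RPKM. Of 7 mRNAs expected in HEK293T cells, 5 were compared, among them VIM, an intermediate filament protein, at 449.9 RPKM in Suff and 241.7 RPKM in Met-. Since each library is scaled to its own total, a change in total translation cannot be seen, and more mRNA and more ribosomes per mRNA cannot be told apart.

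Footprint density shifted broadly under methionine deficiency. The median log2 ratio was 0.31 (SD over mRNAs 0.85). Of the 7897 mRNAs, 1596 (20.2%) were at least 2-fold higher in Met- and 432 (5.47%) at least 2-fold lower, while 163 rose and 40 fell at least 4-fold. After centring the ratios on their median, 849 mRNAs were at least 2-fold higher (10.8%) and 850 at least 2-fold lower (10.8%), so the excess of higher mRNAs rests on the scale. Of the mRNAs compared, 791 had under 10 RPKM in Suff and passed the filter through Met-, and among the 7106 with at least 10 RPKM in Suff the median was 0.22 and 1053 rose (14.8%). The counting interval lay above 0 for 1523 of the 1531 mRNAs that rose and had read counts in both libraries, and below 0 for 393 of the 400 that fell. The same reads gave ratio and interval, so a ratio past 2-fold nearly always left 0 outside. These counts therefore add no support to the calls. At the threshold on level, the mRNAs just inside were SRC (mean RPKM 10.004, log2 ratio -1.06) and IFFO2 (10.009, 0.76), and just outside DBNDD2 (9.992, -0.33) and CNRIP1 (9.99, -0.60).

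**Figure D1:**
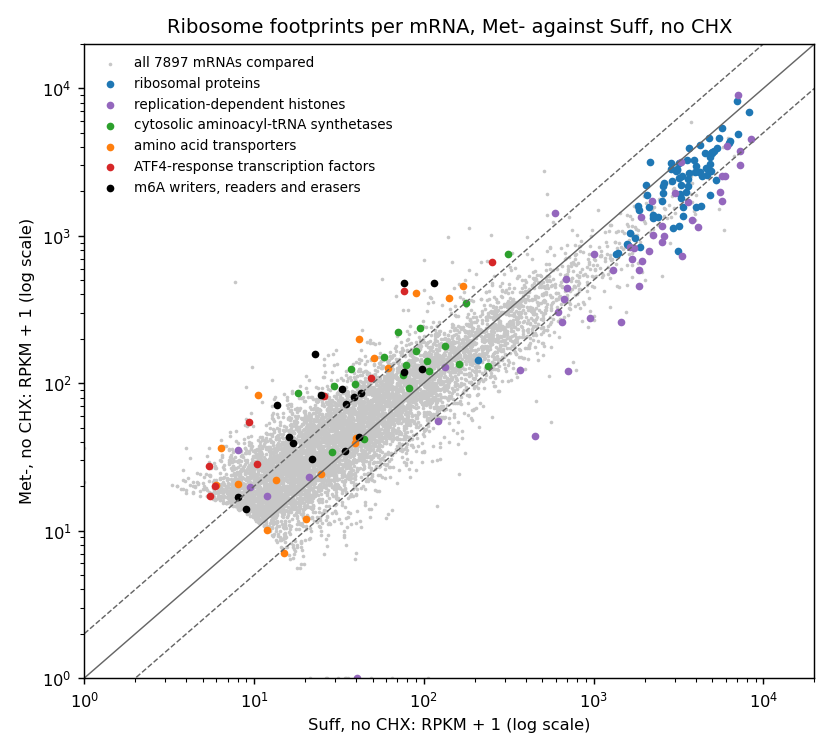
RPKM + 1 in the Suff library (x axis, log scale) against the Met- library (y axis, log scale), 1 point per mRNA, with a solid line at equal values and dashed lines at 2-fold. The 9 ATF4-response factors lay at or above the upper dashed line, 69 of 74 ribosomal protein mRNAs lay below the line of equal values, and 29 of 48 histone mRNAs were at least 2-fold lower. Of the ATF4-response factors, 5 had under 10 RPKM in Suff and passed the filter on level through Met-.

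The ATF4 response was higher in Met-. ATF4 acts on a composite element in gene starts, whose letters (TGATGNAA, or TTNCATCA on the other strand) were searched in the RefSeq windows from 250 bases before to 50 bases after the gene start (GRCh38.p14). Either form was found in 98 of 6409 windows (1.53%), in 6 of 16 cytosolic synthetases (37.5%), 4 of 14 amino acid transporters (28.6%) and 3 of 8 biosynthetic enzymes (37.5%). The windows below belong to genes of these lists that rose at least 2-fold, read along the gene's strand, with the matching letters in capitals.
ASNS, chr7:97872458-97872487, minus strand: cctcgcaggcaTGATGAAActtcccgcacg
SLC7A1, chr13:29595663-29595692, minus strand: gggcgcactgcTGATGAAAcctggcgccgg
SLC38A1, chr12:46266502-46266531, minus strand: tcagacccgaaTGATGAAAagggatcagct
AARS1, chr16:70289675-70289704, minus strand: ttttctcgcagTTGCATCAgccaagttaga
CARS1, chr11:3057407-3057436, minus strand: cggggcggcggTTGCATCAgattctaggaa
IARS1, chr9:92293692-92293721, minus strand: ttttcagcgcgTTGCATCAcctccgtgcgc
MARS1, chr12:57488053-57488082, plus strand: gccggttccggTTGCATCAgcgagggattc
In the synthetase genes shown the letters stood in the reverse form, close to the gene start in CARS1, IARS1 and MARS1 and farther upstream in AARS1. Over all windows the letters marked few mRNAs: 25 of 1290 that rose held them (1.94%) and 4 of 337 that fell (1.19%). The median log2 ratio was 0.36 for mRNAs with the letters and 0.32 for those without. A match is a description of the sequence, not of binding.

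All 9 stress transcription factors of the ATF4 response rose (8 after centring, beside 20.2% and 10.8% of all mRNAs), with a median log2 ratio of 1.67. Of the 9, 5 had under 10 RPKM in Suff and passed the filter on level through Met-, where they are high. All of the other 4 rose, with a median of 1.53, beside 14.8% of all mRNAs with at least 10 RPKM in Suff. ATF4 itself had 250.6 RPKM in Suff and 661.6 RPKM in Met- (831 and 910 reads), a log2 ratio of 1.40 (interval 1.26 to 1.54). CEBPG, a dimer partner of ATF4, went from 75.9 to 420.3 RPKM, a log2 ratio of 2.45 (2.14 to 2.81). DDIT3, the stress factor CHOP, went from 4.4 to 26.5 RPKM on only 8 and 20 reads, a log2 ratio of 2.35 (1.35 to 3.98). With the Suff library thinned to the depth of Met-, DDIT3 had a mean ratio of 4.34 over the draws, in which a Suff value under 5 reads counts as 0. For TRIB3, a pseudokinase that restrains ATF4, the values were 9.4 and 27.2 RPKM (1.44, interval 0.85 to 2.24). The smallest rise was that of ATF3 at 1.14 and the largest that of NUPR1, a small chromatin-associated stress protein, at 2.53, or 5.19 for NUPR1 after the same thinning. The same factors had higher ratios in the other starvations, which share the Suff library. The median was 2.23 over 7 members compared in Leu- and 3.16 over 7 in Arg-. DDIT3 stood at 109.6 RPKM in Leu- and 100.8 in Arg-, and TRIB3 at 125.2 and 162.4, well above their Met- levels. CEBPG was the reverse, with 243.3 RPKM in Leu- and 201.5 in Arg-.

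In the list of eIF2 kinases and phosphatase subunits, which also holds the eIF2 subunit EIF2S1, 5 of 7 were compared and the median was -0.07. PPP1R15A (GADD34), the stress-induced subunit that directs dephosphorylation of eIF2, rose from 3.1 to 21.6 RPKM (log2 ratio 2.45, interval 2.02 to 3.59). It had under 10 RPKM in Suff and passed the filter on level through Met-. Over the other 4 the median was -0.28 and none rose. EIF2S1, the phosphorylated subunit of eIF2, fell from 196.5 to 92.3 RPKM (-1.08). The kinases EIF2AK1 and EIF2AK2 had ratios of 0.34 and -0.07, and the constitutive subunit PPP1R15B had -0.50.

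Of 14 enzymes of amino acid supply counted as ATF4 targets, 12 were compared, all with ratios above 0, and 6 rose (median 1.02). ASNS, asparagine synthetase, had 68.0 RPKM in Suff and 392.1 in Met- (2.51, interval 2.35 to 2.71). CTH, which makes cysteine from cystathionine, rose from 17.3 to 78.2 RPKM (2.12). The mitochondrial serine hydroxymethyltransferase SHMT2 rose to 471.3 RPKM (1.56), GPT2 and ALDH18A1 of alanine and proline synthesis had ratios of 1.52 and 1.37, and PSAT1 of serine synthesis 1.21. PHGDH, the first enzyme of that pathway, had 326.3 and 583.2 RPKM (0.84), and MTHFD2, of mitochondrial folate metabolism, 364.2 and 533.7 (0.55), both short of 2-fold. GOT1 (0.01) and PYCR1 (0.30) had the lowest ratios. In Leu- and Arg-, PHGDH reached 1214.0 and 1038.6 RPKM.

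Of the other ATF4 targets, 10 of 16 were compared and 5 rose (median 1.28, or 0.67 over the 8 with at least 10 RPKM in Suff). TXNIP, an inhibitor of thioredoxin and of glucose uptake, rose most, from 8.7 to 128.6 RPKM (3.75, interval 3.35 to 4.48). DDIT4 (REDD1), which restrains mTORC1, went from 183.6 to 1123.6 RPKM (2.61), above the 698.7 of Leu- and 797.6 of Arg-. SESN2, a leucine sensor upstream of mTORC1, went from 53.4 to 187.3 RPKM (1.79), and STC2, a secreted glycoprotein, to 311.7 (1.96). The remaining 5 had ratios from 0.15 (CDKN1A, the p21 inhibitor) to 0.77 (NARS1).

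**Figure D2:**
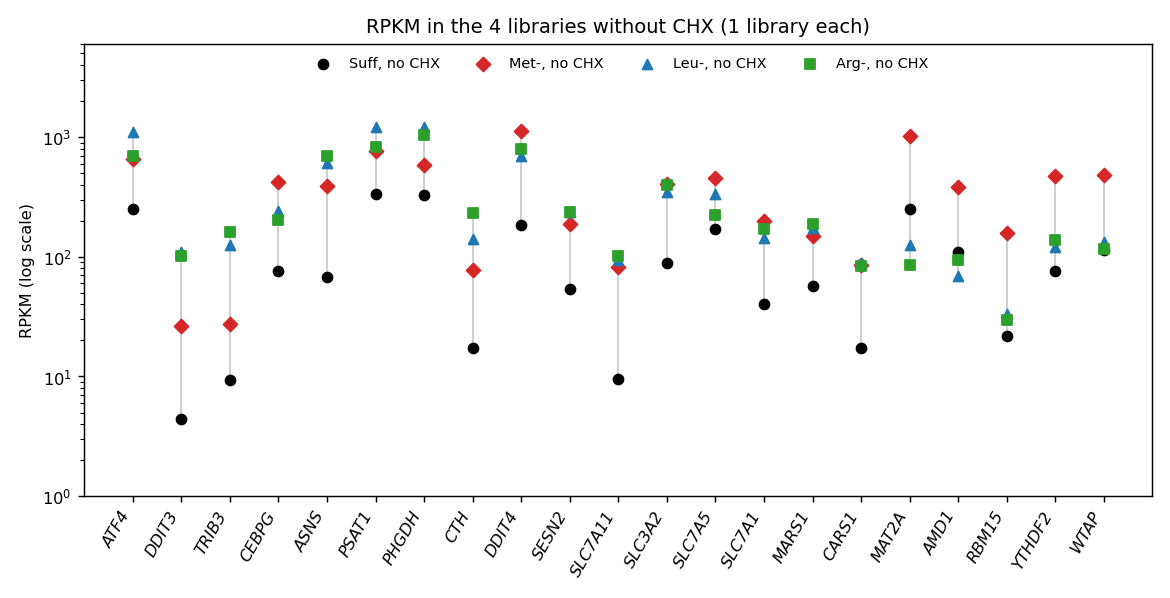
RPKM (y axis, log scale) of 21 mRNAs in the 4 libraries without CHX, 1 point per library, with a gray bar over the range. The Suff point was the lowest for each gene from ATF4 to CARS1, while MAT2A, AMD1, RBM15, YTHDF2 and WTAP on the right had their highest point in Met- alone.

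Plasma membrane amino acid transporters were raised almost as broadly. Of 19, 17 were compared, 10 rose and 1 fell, with a median of 1.37. Over the 13 with at least 10 RPKM in Suff the median was 0.71 and 6 rose. SLC7A11, the cystine-glutamate exchanger, went from 9.5 to 81.6 RPKM (45 and 160 reads, log2 ratio 2.97, interval 2.61 to 3.61). Its partner SLC3A2, the heavy chain shared by several exchangers, went from 89.4 to 405.7 RPKM (2.17), and the other light chain SLC7A5 (LAT1), which imports methionine and leucine, from 170.1 to 453.4 (1.41). SLC1A4, a neutral amino acid carrier, had a ratio of 2.52, the cationic carrier SLC7A1 2.27, the glycine carrier SLC6A9 1.79, and the glutamine carriers SLC38A1, SLC1A5 and SLC38A2 1.54, 1.43 and 1.04. SLC36A4, a lysosomal and membrane carrier, fell from 14.1 to 6.1 RPKM (-1.09), and SLC7A2 had -0.76. The medians of the list were 1.14 in Leu- and 1.31 in Arg-. SLC7A5 stood at 332.7 RPKM in Leu- and 222.8 in Arg-.

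All 20 cytosolic aminoacyl-tRNA synthetases, which charge tRNAs with their amino acids, were compared. A total of 8 rose (40.0%, beside 20.2% of all mRNAs), none fell, and the median was 0.82. CARS1, for cysteine, went from 17.2 to 85.2 RPKM (2.24, interval 2.0 to 2.61), AARS1, for alanine, from 36.4 to 124.4 (1.75), and MARS1, for methionine, from 57.5 to 149.1 (1.36, interval 1.19 to 1.56). LARS1 and IARS1 had ratios of 1.68 and 1.64. The enzymes for phenylalanine (FARSA, -0.85) and lysine (KARS1, -0.26) had the lowest ratios. MARS1 stood at 174.2 RPKM in Leu- and 189.0 in Arg-, so the synthetase of the missing amino acid was no higher in Met- than in the other starvations. Mitochondrial synthetases, of which 16 of 17 were compared, had a median of 0.81 and 4 rose (2 after centring), PARS2, for proline, by 2.49 and TARS2, for threonine, by 1.59. The medians of the mitochondrial list in Leu- and Arg- were 0.18 and 0.39.

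Genes of methionine metabolism did not move as a block. Of 17 enzymes of the methionine cycle, salvage and transsulfuration, 13 were compared, 4 rose, none fell and the median was 0.02. MAT2A, the catalytic subunit of the enzyme that makes SAM, had 248.8 RPKM in Suff and 1019.1 in Met- (928 and 1577 reads, log2 ratio 2.03, interval 1.92 to 2.15). In the other starvations it had 124.8 RPKM (Leu-) and 85.7 RPKM (Arg-), ratios of -0.99 and -1.53 to the same Suff library. MAT2A was thus highest in Met- and lower than in Suff in both other deficiencies. Its regulatory subunit MAT2B had 102.0 and 96.3 RPKM in Suff and Met- (-0.08). MTRR, which reactivates methionine synthase, rose from 14.8 to 38.4 RPKM (1.32), while the synthase MTR had 20.3 and 36.0 (0.80). AHCY, which clears S-adenosylhomocysteine, was at 383.0 and 389.5 RPKM (0.02). The salvage enzymes, which recycle methylthioadenosine to methionine, all had negative ratios, from -0.86 for MTAP and -0.75 for APIP to -0.29 for MRI1.

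Folate enzymes had a median of 0.18 over 13 of 16, with SHMT2 (1.56) and the purine enzyme GART (1.12) higher and TYMS, thymidylate synthase, at -0.83. In the polyamine list, 10 of 12 were compared, 4 rose and 1 fell (median 0.49). AMD1, which decarboxylates SAM for polyamine synthesis, had 109.7 RPKM in Suff, 379.7 in Met-, 68.5 in Leu- and 93.3 in Arg-, a ratio of 1.78 (interval 1.59 to 1.99) in Met-. As for MAT2A, the Met- value was the highest and those in Leu- and Arg- lay below Suff. AZIN1, which relieves antizyme inhibition of ornithine decarboxylase, rose by 2.13, and the catabolic enzymes SMOX and SAT1 by 1.6 and 1.27. ODC1, ornithine decarboxylase, was level (220.8 and 225.4 RPKM, 0.03), and SMS, spermine synthase, fell from 159.1 to 53.7 RPKM (-1.55).

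Of 33 SAM-dependent methyltransferases compared, 9 were at least 2-fold higher (27.3%, beside 20.2% of all mRNAs), 3 lower (9.1%, beside 5.47%), and the median was 0.43. After centring, 5 were higher and 5 lower, so as a list they lay near all mRNAs. RNMT, which methylates the mRNA cap, rose by 1.64, the histone H3 enzymes NSD1 and SETDB1 by 1.55 each, EHMT1 by 1.35 and the maintenance DNA methyltransferase DNMT1 by 1.07. PRMT1, the main protein arginine methyltransferase, fell from 544.0 to 110.8 RPKM (1906 and 161 reads, -2.29, interval -2.54 to -2.06), against 355.6 in Leu- and 390.0 in Arg-. DIMT1, an rRNA methyltransferase, had -1.22, and DNMT3B -1.05.

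The mRNAs for N6-methyladenosine (m6A), the methyl mark that SAM supplies to mRNA, were higher in Met- as a group. This list was drawn up after RBM15 and YTHDF2 had been seen among the largest rises, so its counts are a description. Of 19, 18 were compared, 12 rose (7 after centring), none fell and the median was 1.06. Over the 16 compared in all 3 starvations the medians were 1.13 in Met-, 0.41 in Leu- and 0.23 in Arg-. RBM15, an adaptor of the methyltransferase complex, had 22.0 RPKM in Suff, 157.8 in Met-, 33.2 in Leu- and 29.4 in Arg-. Its log2 ratio in Met- was 2.79 (interval 2.61 to 3.08). YTHDF2, which binds the mark and promotes mRNA decay, had 75.4, 475.6, 121.7 and 137.4 RPKM in the same order (2.64), and the complex subunit WTAP 114.2, 478.3, 133.5 and 117.3 (2.06). CBLL1, another subunit, had a ratio of 2.37 and the nuclear reader YTHDC1 1.75. METTL16, which methylates the MAT2A mRNA and governs its splicing, had 33.6 RPKM in Suff and 70.9 in Met- (1.06), with 19.4 in Leu- and 19.8 in Arg-. The catalytic subunit METTL3 had 33.4 and 33.5 RPKM (0.00), and its RNA-binding partner METTL14 16 and 38.1 (1.2). The readers IGF2BP1, IGF2BP2 and IGF2BP3 had ratios of 0.35, 0.05 and 0.47.

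**Figure D3:**
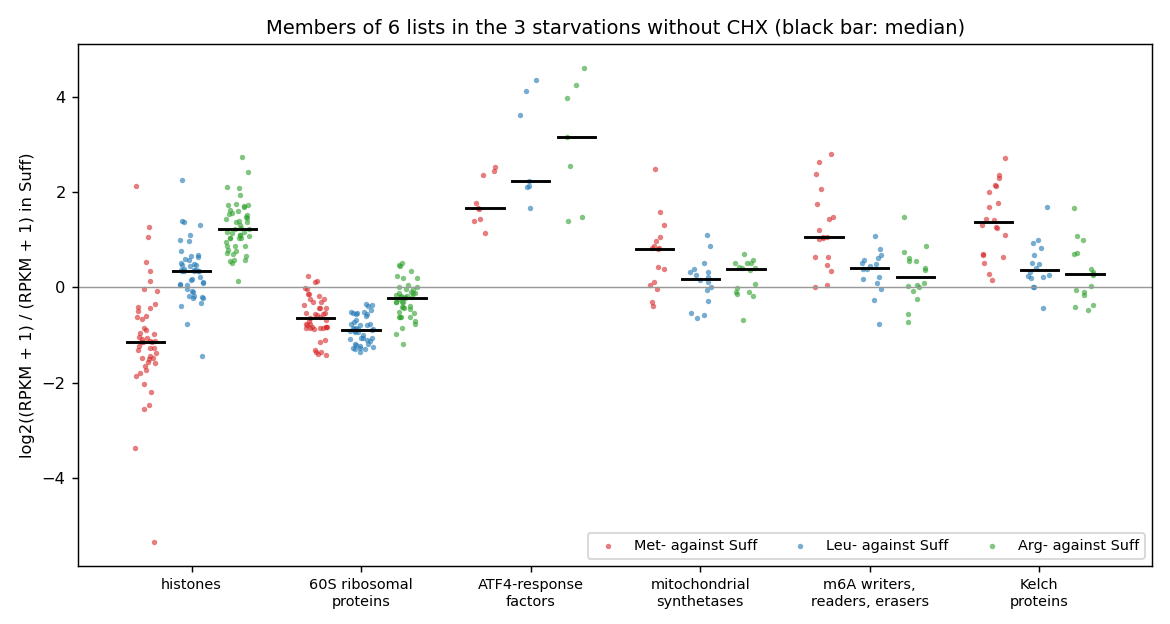
Log2 ratio to Suff (y axis) of the members of 6 lists in Met-, Leu- and Arg-, all without CHX and all over the same Suff library; points are mRNAs and black bars medians. Histones lay mostly below 0 in Met- (median -1.14) and mostly above it in Leu- (0.35) and Arg- (1.23), and the m6A and Kelch lists had their highest medians in Met- (1.06 and 1.37).

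Ribosomal protein mRNAs were lower in Met-. Of the 74 compared, 69 had a ratio below 0, 10 fell (beside 5.47% of all mRNAs) and none rose, and their median was -0.53. After centring, 25 of the 74 were at least 2-fold lower, beside 10.8% of all mRNAs. In the decile of all mRNAs with the highest mean RPKM the median was -0.45 and 18.6% fell. In the decile with the shortest coding length the median was -0.27 and 17.3% fell. Whether ribosomal protein mRNAs differ from mRNAs of like level and length was not tested. They took 14.2% of the footprints in Suff, 10.1% in Met-, 7.82% in Leu- and 12.2% in Arg-. In the small subunit list (30 of 32 compared, median -0.42) RPS26 fell from 3124.6 to 787.6 RPKM (-1.99), FAU to 1155.4 (-1.47) and RPS12 to 840.9 (-1.16), while RPS2 had a ratio of 0.55. The large subunit list (44 of 47, median -0.64) ran from RPLP1, a stalk protein (4269.7 and 1593.3 RPKM, -1.42), and RPL14 (-1.39) to RPL22 (0.13) and RPL39 (0.24). The list medians in Leu- were -1.02 and -0.89 and in Arg- -0.31 and -0.22. Uniquely mapped reads were counted, so values for ribosomal proteins with near-identical copies are uncertain.

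A TOP start is a C at the first base followed by pyrimidines. A C with 4 or more pyrimidines after it stood at the RefSeq start of 386 of 6409 genes (6.0%), and of 40 of 58 ribosomal protein genes with a window (69.0%). The windows below, from 10 bases before to 20 after the start, show tracts (capitals) of genes with opposite ratios.
RPS12, chr6:132814559-132814588, plus strand: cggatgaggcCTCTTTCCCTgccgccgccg
RPLP1, chr15:69452808-69452837, plus strand: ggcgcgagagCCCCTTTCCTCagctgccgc
NPM1, chr5:171387839-171387868, plus strand: agcctgcgtcCTTTCCCTggtgtgattccg
EEF1A1, chr6:73521013-73521042, minus strand: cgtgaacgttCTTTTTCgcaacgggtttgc
EEF2, chr19:3985444-3985473, minus strand: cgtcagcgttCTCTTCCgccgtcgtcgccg
In Met-, the 40 ribosomal protein genes with such a start had a median of -0.54 and the 346 other genes with one 0.15, beside 0.34 for 6023 genes without. RPS12, RPLP1 and NPM1 fell, NPM1, a nucleolar chaperone of ribosome assembly, from 5869.0 to 1099.1 RPKM (-2.42). EEF2, the translocation factor, rose from 576.4 to 1242.0 RPKM (1.11, interval 1.05 to 1.17), and EEF1A1, which brings aminoacyl-tRNA to the ribosome, had 3764.4 and 5950.1 RPKM (0.66). Among 10 elongation factors (median 0.26) EEF1G rose most, from 23.0 to 80.6 RPKM (1.76), and EIF5A, which relieves stalled ribosomes, fell to 528.2 RPKM (-1.08), with EEF1D at -0.93. EEF1G and its complex partners EEF1D and EEF1B2 (-0.87) thus had ratios on opposite sides of 0. EEF1G had a far lower RPKM in Suff than EEF2 and EEF1A1, and whether unique mapping removed its reads was not tested.

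Initiation factors tended lower, with 5 of 38 compared falling (13.2%, beside 5.47% of all mRNAs), none rising and a median of -0.34. After centring 10 were lower, beside 10.8% of all mRNAs. Of the 38, 33 had a mean RPKM of at least 50 and a median of -0.36, beside 0.02 for all mRNAs at that level. Whether the list differs from mRNAs of closely matched level was not tested. EIF3K and EIF4H fell by 1.22 and 1.21 on the log2 scale. EIF1, which guards start codon choice, had 1472.4 RPKM in Suff and 1071.9 in Met- (-0.46), with 1608.1 in Leu- and 2547.8 in Arg-, whereas EIF5, which opposes it, had 186.0 and 268.4 (0.53), with 130.9 and 173.9. EIF5B (0.89), the subunit-joining GTPase, and EIF4EBP1 (0.71), the cap-binding repressor, had the highest ratios.

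Replication-dependent histone mRNAs had the lowest median of the lists, -1.14. Of 57, 48 were compared, 29 fell (60.4%, beside 5.47% of all mRNAs) and 3 rose. H2AC15 went from 453.0 RPKM in Suff to 43.0 in Met- (559 and 22 reads, -3.37, interval -4.08 to -2.79), H3C12 from 1445.2 to 259.6 (-2.47) and H3C13 from 702.1 to 119.6 (-2.54). H3C6, at 39.5 RPKM in Suff, was not listed in Met-. The same list had medians of 0.35 in Leu- and 1.23 in Arg-, with H3C12 at 1410.9 and 3385.2 RPKM. Histones took 5.05% of the footprints in Suff, 2.54% in Met-, 6.89% in Leu- and 12.2% in Arg-. H4C11 (1.26) and the testis linker histone H1-6 (2.12, or 3.17 with Suff thinned) rose in Met-. Histone genes have near-identical copies, and single members are uncertain under unique mapping.

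DNA replication genes had a median of 0.44, beside 0.31 for all mRNAs. All 44 were compared, 15 rose and 1 fell, but after centring 4 were higher and 2 lower, near the share of all mRNAs. DTL, an S-phase ubiquitin ligase adaptor, had 25 RPKM in Suff and 132.0 in Met- (2.36), and the helicase subunit MCM5 82.0 and 244.1 (1.56). RRM2, the ribonucleotide reductase subunit, fell from 298.2 to 126.8 RPKM (-1.23), and the sliding clamp PCNA had 869.6 and 541.1 (-0.68). Mitotic genes (25 of 29, median 0.08, with 2 higher and 3 lower, or 1 and 7 after centring) ran from PTTG1 (securin, -1.34) and AURKB (-1.10) to CDC25C (1.04) and the spindle protein TPX2 (1.45). Of 15 G1 genes (median 0.15) CCND1, the D cyclin, fell from 59.2 to 11.2 RPKM (-2.30) and CCND2 had -0.92, while the CDK4 inhibitor CDKN2C (1.55) and the stress protein GADD45B (2.18) rose. GADD45B had 60.7 RPKM in Met-, 15.1 in Leu- and 7.0 in Arg-.

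Short-lived transcription factors and feedback regulators of growth signals rose in 8 of 14 compared (of 22), with a median of 1.40, beside 0.63 in Leu- and 0.83 in Arg-. DUSP1, a MAP kinase phosphatase, went from 28.0 to 157.2 RPKM (2.45), and JUN, an AP-1 subunit, from 99.8 to 426.3 (2.08). ID1, an inhibitor of differentiation factors, had 105.5 RPKM in Suff, 347.8 in Met-, 135.6 in Leu- and 102.1 in Arg- (1.71 in Met-), and IER2 44.1, 153.1, 38.8 and 48.0 (1.77). KLF6 and JUND had -0.20 and 0.11.

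Zinc finger transcription factors formed a large block of raised mRNAs. The family was picked after grouping all compared genes by the letters of their symbols, where ZNF had the highest median of 89 groups of at least 10 members. Of 114 compared ZNF genes, 70 rose, none fell and the median was 1.27. Of the 114, 49 had under 10 RPKM in Suff and passed the filter on level through Met-, where they are high. Among the other 65 the median was 0.9 and 26 rose (40.0%, beside 14.8% of all mRNAs with that level in Suff). Over the 74 compared in all 3 starvations the medians were 1.05 in Met-, 0.38 in Leu- and 0.34 in Arg-. ZNF503, a developmental repressor, had 99.1 RPKM in Suff, 683.5 in Met-, 106.4 in Leu- and 141.7 in Arg- (log2 ratio 2.77, interval 2.65 to 2.92), and ZNF184 rose from 4.4 to 35.1 (2.75). ZBTB, ZSCAN and ZKSCAN genes, also zinc finger proteins, rose in 26 of 32 (median 1.53, or 1.19 over the 11 with at least 10 RPKM in Suff), ZSCAN21 by 2.55 and ZBTB5 by 2.47. ZNF830 (-0.32), ZNF622 (-0.25) and ZBTB44 (0.07) were among the lowest. By coding length, 19 zinc finger mRNAs of up to 1000 nt had a median of 0.35, near that of all mRNAs, and 2869 others -0.08. From 1000 to 1500 nt, 47 had 1.26 and 1847 others 0.30, and from 1500 to 2000 nt, 47 had 1.5 and 1149 others 0.5. The medians from 2000 to 3000 nt were 1.51 for 25 and 0.75 for 1053 others, and over 3000 nt 1.45 for 9 and 0.91 for 585 others. These counts hold the mRNAs that passed through Met- alone.

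Kelch proteins, substrate adaptors of cullin ubiquitin ligases, rose in 14 of 20 (median 1.37). Of the Kelch symbols, only KLHL formed a group picked in the same way (15 genes, median 1.24, 9 rising), and KBTBD genes were joined to these after values were seen. Of the 20, 7 had under 10 RPKM in Suff and passed the filter on level through Met-. Over the other 13 the median was 1.09 and 7 rose (53.8%, beside 14.8% of all mRNAs with that level in Suff). Over the 14 compared in all 3 starvations the medians were 1.33 in Met-, 0.3 in Leu- and 0.15 in Arg-. KBTBD4 had 8.6 RPKM in Suff and 62.1 in Met- (2.72), with 14.3 in Leu- and 14.8 in Arg-, and KBTBD7 a ratio of 2.35. The lowest were KLHL8 (0.15) and KLHL23 (0.29). Subunits of Integrator, which cleaves nascent small nuclear RNAs, rose in 7 of 13 (median 1.08), but in 1 of 13 after centring. INTS15 rose by 1.32 and INTS1 by 1.24, with INTS10 at -0.24. This list too was added after values were seen, and INTS ranked 4 by median among the 89 symbol groups. Of the 13, 2 had under 10 RPKM in Suff and passed the filter on level through Met-. Over the other 11 the median was 0.9 and 5 rose (45.5%, beside 14.8% of all mRNAs with that level in Suff).

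**Figure D4:**
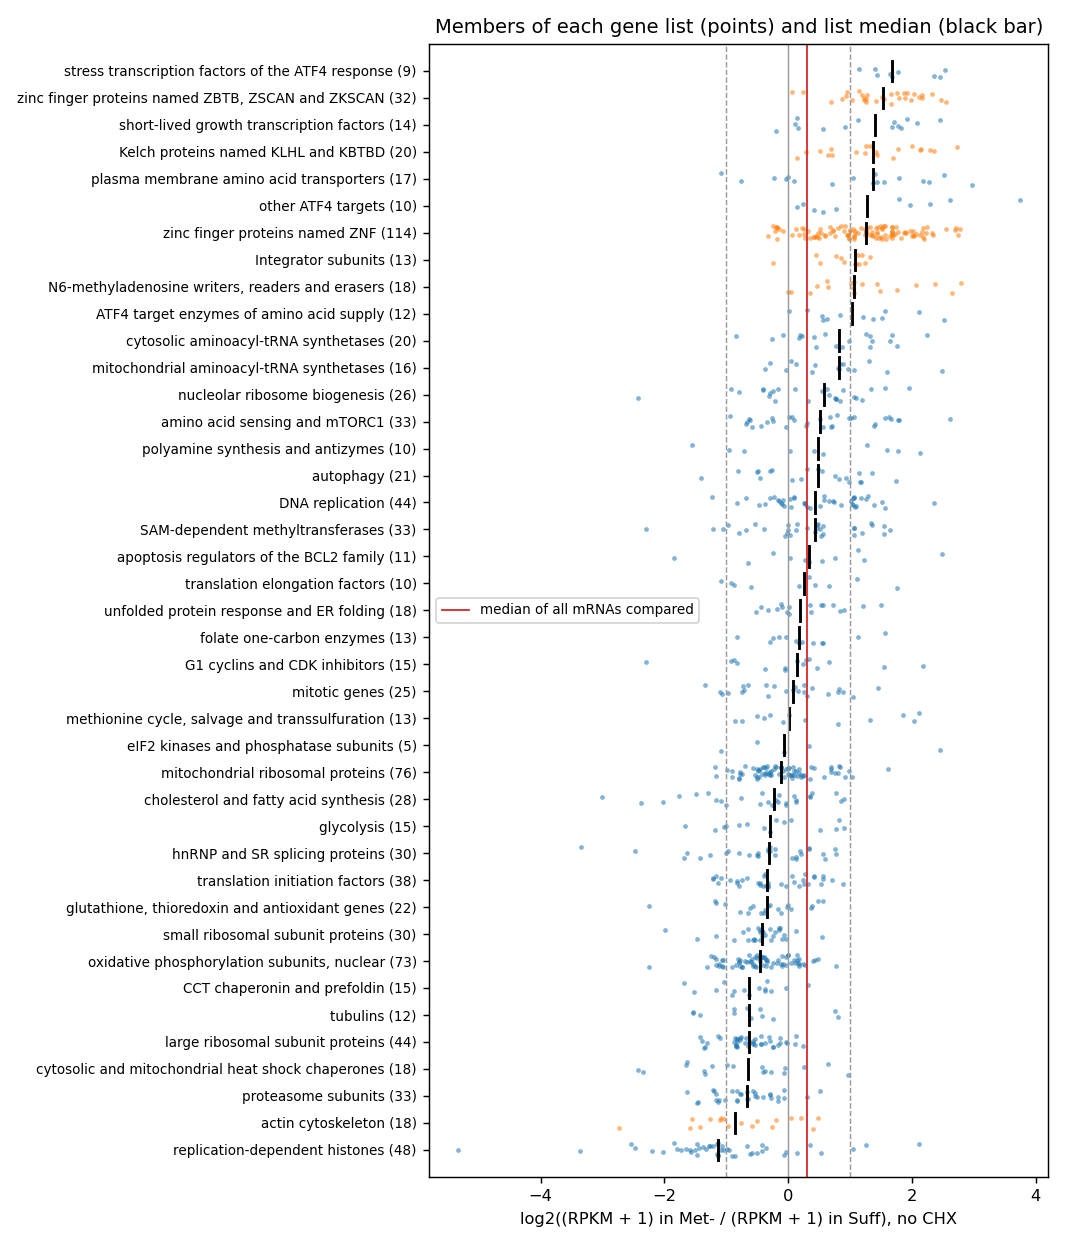
Log2 ratio of Met- to Suff (x axis) for the members of each gene list, 1 row per list with the number compared, black bars for list medians, a red line for the median of all mRNAs (0.31) and dashed lines at 2-fold. Blue lists are those first compiled and orange lists were added after values were seen; medians ran from -1.14 for histones to 1.67 for the ATF4-response factors, and the leftmost histone point is H3C6, which was not listed in Met- and was counted as 0.

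Of 33 regulators of mTORC1 compared, 10 rose and none fell (median 0.51), and of the 26 with at least 10 RPKM in Suff 5 rose (19.2%, beside 14.8% of all such mRNAs). Beside DDIT4 and SESN2, the highest were SLC38A9 (1.77), the lysosomal arginine sensor, TSC2 (7.7 and 26.5 RPKM, 1.66), which inhibits RHEB, RPTOR (1.63), the scaffold subunit, and RRAGC (1.56). EIF4EBP2 (-0.94) and SEH1L (-0.68) had the lowest ratios. Autophagy genes had a median of 0.48 over 21 of 30, and 5 rose (23.8%, beside 20.2% of all mRNAs, or 2 after centring). The initiation factor ATG13 (1.74) and the receptor NBR1 (1.36) were higher and GABARAP, an ATG8 protein, lower (495.7 and 186.5 RPKM, -1.41), with ATG3 at -0.81. Nucleolar factors of ribosome assembly had 6 of 26 higher (23.1%, beside 20.2% of all mRNAs, or 3 of 26 after centring), led by POLR1B of RNA polymerase I (1.95) and UTP15 (1.56), and NPM1 as the one that fell (median 0.58). LYAR had -0.93.

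Proteasome subunits and cytosolic chaperones were lower, whereas endoplasmic reticulum folding genes were not. All 10 of the 33 proteasome subunits past 2-fold fell (30.3%, beside 5.47% of all mRNAs), and the median was -0.67, with 16 lower after centring. Those that fell included PSMC3 (274.1 and 87.2 RPKM, -1.64) and PSMD3 (-1.47). PSMD1 (0.51) and PSMD9 (0.30) were the highest. Of 18 heat shock chaperones, 7 fell (median -0.65): HSPA8, the constitutive HSC70, had 754.0 RPKM in Suff, 138.8 in Met-, 163.1 in Leu- and 113.9 in Arg- (-2.43 in Met-), and HSPE1, the mitochondrial co-chaperonin, 1545.1, 303.1, 605.4 and 325.5 (-2.35). HSPA9 and the co-chaperone BAG3 had 0.65 and 0.97. In the CCT and prefoldin list 4 of 15 fell (median -0.63, with 7 lower after centring), PFDN4 (-1.68) and PFDN2 (-1.52) most, with CCT3 (-0.03) and CCT8 (0.32) at the upper end. The endoplasmic reticulum list had a median of 0.19 over 18, with 2 higher, the stress sensor ATF6 (1.5) and SEL1L (1.21) of degradation, and CALR (-0.52) and SDF2L1 (-0.44) lowest.

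Lipid synthesis genes fell in 9 of 28 (32.1%, beside 5.47% of all mRNAs) and rose in none (median -0.23). INSIG1, which retains the sterol sensor in the endoplasmic reticulum, had 118.0 RPKM in Suff and 13.8 in Met- (309 and 15 reads, -3.01, interval -3.95 to -2.35), with 33.6 in Leu- and 14.9 in Arg-. ACAT2, of acetoacetyl-CoA synthesis, fell from 173.9 to 32.8 RPKM (-2.37), MVD of the mevalonate pathway from 41.8 to 9.6 (-2.02), and FASN, fatty acid synthase, from 77.8 to 27.1 (-1.49). In contrast DHCR7 (95.5 and 178.5 RPKM, 0.90) and SC5D (0.85), of the last steps to cholesterol, had the highest ratios, and HMGCS1 had -0.15. DHCR7 lay at 50.5 RPKM in Leu- and 52.2 in Arg-.

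The lists of energy metabolism had medians below 0. Nuclear-encoded subunits of oxidative phosphorylation fell in 12 of 73 (16.4%, beside 5.47% of all mRNAs) and rose in none (median -0.45). After centring 22 were lower, beside 10.8% of all mRNAs. In the decile of all mRNAs with the highest mean RPKM the median was also -0.45 and 18.6% fell. Whether the list differs from mRNAs of like level was not tested. ATP5MC3 of the ATP synthase ring fell from 2526.4 to 529.7 RPKM (-2.25) and NDUFS5 of complex I by 1.31 on the log2 scale. SDHA (0.78) and NDUFA13 (0.48) were highest. All 76 mitochondrial ribosomal proteins were compared, with 2 higher (MRPL40, 1.62, and MRPL46, 1.03), 2 lower (MRPS18C, -1.18, and MRPL21, -1.16) and a median of -0.12, but after centring 1 was higher and 11 lower. Of 15 glycolysis genes 3 fell (5 after centring, median -0.29), PGAM1 (-1.67) and GAPDH (5278.9 and 2328.4 RPKM, -1.18) most, with ENO2 (0.90) and HK2 (0.82) highest. Antioxidant genes fell in 4 of 22 (median -0.35), GLRX, glutaredoxin, on 61 and 5 reads (-2.25) and TXN, thioredoxin, from 3801.9 to 1682.8 RPKM (-1.18). The selenoproteins TXNRD1 (0.56) and GPX4 (0.48) were highest.

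RNA-binding splicing proteins fell in 7 of 30 (23.3%, beside 5.47% of all mRNAs) and rose in none (median -0.31). HNRNPL had 558.9 RPKM in Suff, 53.8 in Met-, 700.9 in Leu- and 521.9 in Arg-, on 3106 and 124 reads in the first pair (-3.35, interval -3.65 to -3.12). Its paralog HNRNPLL had 38.7, 6.1, 47.2 and 49.9 RPKM (-2.48). Both were low in Met- alone. HNRNPR (0.77) and SRSF8 (0.75) were highest. Structural genes were lower too: 3 of 12 tubulins fell (5 after centring, median -0.64), TUBA1B (-1.54) and TUBA1C (-1.53) among them, with TUBE1 (0.80) and TUBD1 (0.75) at the other end. An actin list added after MYH9 was seen had 8 of 18 lower (median -0.86), MYH9, nonmuscle myosin, from 160.4 to 23.1 RPKM (-2.74), with 39.5 in Leu- and 32.1 in Arg-, and TPM4, a tropomyosin, at -1.59. Of 11 BCL2 family genes 3 rose (27.3%, beside 20.2% of all mRNAs, or 1 after centring), with a median of 0.34. The death proteins BMF (2.49, on 5 and 15 reads, or 4.29 with Suff thinned) and PMAIP1 (NOXA, 102.3 and 241.0 RPKM, 1.23) rose, and BID (-1.85) fell, with BAX at -0.65.

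Over all mRNAs with at least 10 RPKM in both libraries and recovered reads in both, the highest ratio was that of MED18, a Mediator subunit of transcription, with 55.9 RPKM in Suff and 506.9 in Met- (110 and 414 reads, 3.16, interval 2.87 to 3.50). In Leu- and Arg- MED18 had 59.7 and 62.4 RPKM. Others among the highest were KRTAP19-1 (3.05, on 10 and 37 reads, or 5.14 with Suff thinned), RBM15, ZNF503, TSPAN33 (2.76), YTHDF2, DDIT4, PDP1 (2.60), which activates pyruvate dehydrogenase, and SERTAD1 (2.57), a CDK4-binding protein. Of those named, only DDIT4 was at least 2-fold above Suff in both other starvations, and PDP1 had 13.1 and 10.7 RPKM there against 79.5 in Met-. The lowest were H2AC15, HNRNPL, INSIG1, MYH9, RPL22L1 (-2.68), FABP5 (-2.58), a fatty acid binding protein, H3C13, H3C12, HSPA8 and NPM1. RPL22L1, a paralog of a ribosomal protein, had 791.5 RPKM in Suff, 122.8 in Met-, 630.0 in Leu- and 654.5 in Arg-. The same transcript was the highest of its gene in both libraries for each of these genes.

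The log2 ratio in Met- followed coding length. Medians over deciles of 7650 mRNAs went from -0.27 in the shortest (111 to 492 nt) to 0.90 in the longest (2742 to 13122 nt), and the share that rose from 6.7% to 44.3%. These deciles also hold the mRNAs that passed the filter on level through Met-. Leu- and Arg- ran from -0.16 and -0.35 to 0.42 and 0.42 over the same deciles. Level moved with it: medians went from 0.63 in the decile with the lowest mean RPKM to -0.45 in the highest. Across mRNAs, which are not independent and share both libraries, Spearman rho was 0.44 with coding length (Pearson r = 0.40 on log length) and -0.37 with mean RPKM. Within mean RPKM of 10 to 30, 30 to 100 and over 100, rho with length was 0.29, 0.34 and 0.31 over 2933, 2829 and 1888 mRNAs. The share of methionine in the protein bore little relation (rho = -0.08), with a median of 0.28 in the decile with the least methionine, 0.42 in the sixth decile and 0.04 in the decile with the most.

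**Figure D5:**
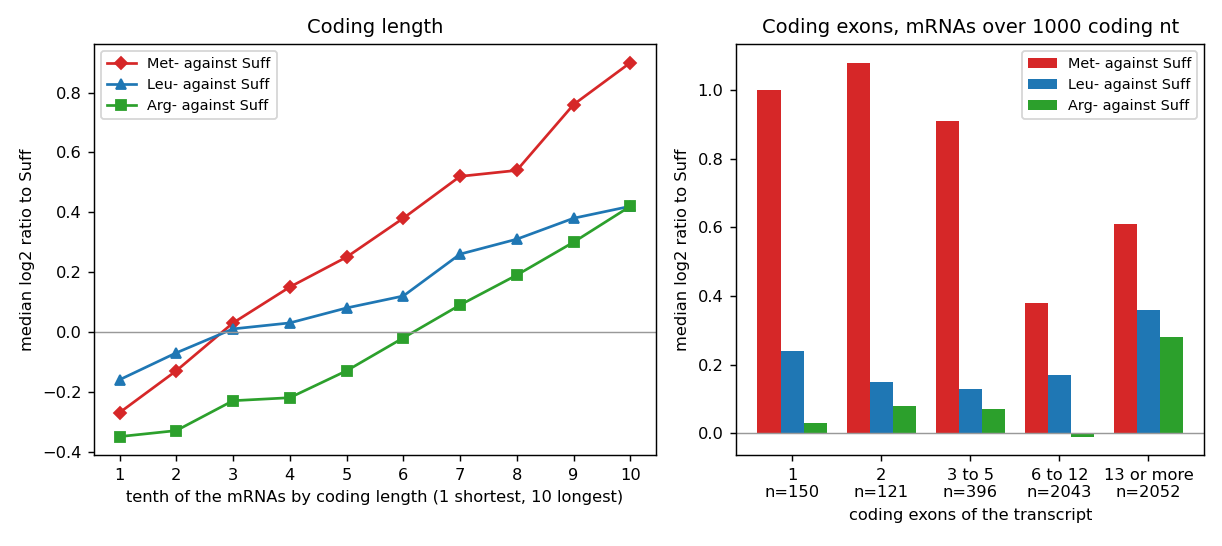
Left, median log2 ratio to Suff (y axis) by decile of the mRNAs in coding length (x axis) for the 3 starvations; right, the same for mRNAs over 1000 coding nt by number of coding exons. Met- medians went from -0.27 to 0.90 with length, and its bars were highest for 1 and 2 coding exons (1.0 and 1.08).

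Genes with few coding exons stood high in Met-. Among mRNAs over 1000 coding nt, those with 1 coding exon had a median of 1.0 and 75 of 150 rose, and those with 2 a median of 1.08 with 65 of 121 rising. With 3 to 5 coding exons the median was 0.91 (396 mRNAs, 44.9% rising), with 6 to 12 it was 0.38 (2043, 20.2%) and with 13 or more 0.61 (2052, 27.9%). The mRNAs that passed the filter on level through Met- were not set apart in these classes. In Leu- the medians of the same 5 classes were 0.24, 0.15, 0.13, 0.17 and 0.36, and in Arg- 0.03, 0.08, 0.07, -0.01 and 0.28. Among shorter mRNAs the medians in Met- were 0.18 with 1 coding exon, where histones lie, 0.25 with 2, and -0.13 with 3 to 5.

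The same comparison in the CHX series rested on far fewer mRNAs. Of the mRNAs listed in both CHX libraries with a mean RPKM of at least 10, 1890 could be set beside these values, with a median of 0.89. MAT2A had a log2 ratio of 3.50 with CHX, ATF4 1.71, ASNS 2.94, SLC3A2 4.62, DDIT4 4.88, RBM15 3.97 and ZNF503 4.37, in a series with a median well above 0. HNRNPL had -0.29 and FASN 1.87 with CHX, against -3.35 and -1.49 without. Several lists that lay below 0 without CHX lay above it with CHX. The medians were 1.30 over 9 glycolysis genes, 0.54 over 7 heat shock chaperones, 0.78 over 8 of the CCT and prefoldin list, 0.60 over 23 splicing proteins, 0.75 over 6 lipid synthesis genes and 1.09 over 2 tubulins. Of these, only glycolysis genes and tubulins lay above the 0.89 of all mRNAs with CHX. The others stayed below the median of all mRNAs in both series, so their change of side rests on the scale. Histones (-1.63 over 35) and both ribosomal subunits (-1.44 over 29 and -1.13 over 34) lay below 0 in both series. So did the proteasome (-0.41 over 18), oxidative phosphorylation (-0.23 over 43), antioxidant (-0.1 over 10) and actin (-0.01 over 9) lists, nearer 0. The lowest count listed was 64 reads with CHX and 5 without, and the records name duplicate removal only without CHX, so the sizes of the ratios are not comparable.

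Of the 3 starvations without CHX, Met- had the largest share of mRNAs at least 2-fold higher, and Arg- the largest share at least 2-fold lower. At least 2-fold higher were 6.89% of the mRNAs compared in Leu- and 8.33% in Arg-, and at least 2-fold lower 2.12% and 6.05%, all against the same Suff library. The order of the lower shares rests on the scale. After centring each on its own median, 10.8% were lower in Met-, 3.49% in Leu- and 5.64% in Arg-, and at least 4-fold lower without centring were 40, 9 and 25 mRNAs. At least 2-fold higher after the same centring were 10.8% in Met-, 4.51% in Leu- and 8.84% in Arg-. Met- thus kept the largest higher share, but by less. Taken directly against Leu-, over 8133 mRNAs, Met- had a median log2 ratio of 0.15, and list medians of -1.45 for histones, -0.73 for ATF4-response factors, 0.26 for large subunit proteins, 0.87 for m6A genes and 0.68 for ZNF genes. Against Arg- the same medians were 0.29 over 8057 mRNAs, and -2.37, -0.86, -0.44, 0.91 and 0.70.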

How the data were processed

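Ribosome profiling values of 2 HEK293T libraries were analysed, with 4 others set beside them. Per the labels and methods, the authors trimmed adaptors (the submitters' processing notes name cutadapt), trimmed low quality bases, kept reads of 25 to 35 nt, used Bowtie to place them on transcripts of GRCh38 with no mismatch, counted those with a single position, and deposited RPKM per Ensembl transcript. The records name duplicate removal for the series without CHX. Tool versions are not given in the sources used here. CHX libraries of Leu- and Arg- were not used here.

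Transcripts were matched to GENCODE release 44 (97.0% in Suff, 96.9% in Met-), and others kept their identifiers. RPKM times coding length gave whole reads (within 0.01 of a read) for 97.1% and 97.2% of matched transcripts, with medians of 88 and 57 reads and lowest counts of 5. In Suff, 6.02% of transcripts had over 1 read per coding nt, and 1.88% in Met-. The sources used here do not describe how duplicates were removed, and whether removal compressed these values was not tested. The highest transcript per gene was used, with a pseudocount of 1, and mRNAs absent from a library counted as 0, which applied to 11 in Met- and 2 in Suff. Log2 fold changes on this scale understate those of low mRNAs. The counting intervals are Clopper-Pearson intervals of the read ratio, without a pseudocount. The median distance from their middle to an end was 0.62 at a mean RPKM of 10 to 20 and 0.14 in the highest class. With 1 library per condition no test was made and no count model was fitted.

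Members and lists were chosen with earlier results of these data known. The genes named are the 2 highest and 2 lowest of each list, 26 fixed names, of which 3 were not analysed here, and the 10 highest and lowest of all mRNAs with at least 10 RPKM and reads in both libraries. Some genes that the rule picks are not reported here. Other genes, and 6 of the 43 lists, were named after values were seen. Promoter sequences are from RefSeq (GRCh38.p14), found for 6409 of the mRNAs compared. Scripts were tested on simulated data. Intervals came from scipy 1.17.1 and figures from matplotlib 3.10.9, and tables were handled with pandas 2.3.3 and numpy 2.4.6 under Python 3.11.15.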

Additional observations from a re-analysis of the deposited data

Results flagged for a closer look

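Replication-dependent histone mRNAs had a median log2 ratio to Suff of -1.14 in Met-, 0.35 in Leu- and 1.23 in Arg-. This was picked out because the Met- median lay on the other side of 0 from both other starvations. With 1 library per condition and a shared Suff library, the difference was not tested.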

How the results depend on the processing

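The number of mRNAs at least 2-fold higher in Met-, 1596, was 382 with a minimum mean RPKM of 50, 2485 with no filter on low values and 849 with ratios centred on their median. The number at least 2-fold lower, 432, was 1104 with no filter, 850 after centring and 274 where each library had at least 32 reads. These alternatives compare other numbers of mRNAs, 3449 with the minimum of 50, 11655 with no filter and 6270 with at least 32 reads. The median log2 ratio of 0.31 was 0.02 with a minimum mean RPKM of 50, 0.0 after centring and 0.36 with at least 32 reads. With a pseudocount of 0.1, only mRNAs listed in both libraries, summed transcripts, or the Suff library thinned to the reads of Met- (20 draws), both counts stayed within 1.5 times.

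Of 42 list medians, none changed sign with a pseudocount of 0.1, listing in both libraries, summed transcripts or thinning. After centring 6 became negative: the methionine cycle, folate, elongation factor, endoplasmic reticulum, mitotic and G1 lists. With a minimum mean RPKM of 50, 4 changed sign, with no filter 2, and with 32 reads 1. Of 380 list or named genes past 2-fold, 75 no longer passed 2-fold after centring and 3 after thinning. Depth limits low mRNAs: thinning moved DDIT3 from 2.35 to 4.34, BMF from 2.49 to 4.29, NUPR1 from 2.53 to 5.19, KRTAP19-1 from 3.05 to 5.14 and H1-6 from 2.12 to 3.17. Chosen after seeing the data, a limit to members with at least 10 RPKM in Suff moved the ZNF median from 1.27 to 0.9 and that of ZBTB, ZSCAN and ZKSCAN from 1.53 to 1.19. No paired analysis was possible because each condition had 1 library.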
